A study of Ursus arctos with 5 samples.

Results

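The thin filament of striated muscle is a strand of actin along which tropomyosin, a coiled-coil protein, lies end to end. Tropomyosin covers the sites on actin that myosin binds, and the troponin complex moves it away when calcium arrives. In that complex troponin C binds calcium, troponin I holds the filament in its inhibited state and troponin T ties the complex to tropomyosin. TNNI3 encodes the troponin I of the heart, while TNNI1 and TNNI2 encode the forms known from slow and fast skeletal fibres. TPM1 and TPM3 are tropomyosin genes that each give rise to many isoforms through alternative promoters and exons. The sarcomeric product of TPM1 is known from fast fibres and the heart, and that of TPM3 from slow fibres.

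Transcripts named TNNI3, TPM1 or TPM3 were followed in the gastrocnemius, a calf muscle, of grizzly bears that were active (October) or hibernating (February) when biopsied. All transcripts with these gene names were taken, which gave 1 transcript of TNNI3, 4 of TPM1 and 7 of TPM3, or 12 of the 26614 transcripts listed, of which 9093 carry a gene name. There were 4 single-end libraries, 1 per state from a bear called the subadult and 1 per state from a bear called the adult, so that each state has 2 libraries. Both bears were kept at a research center, fasting in February, and the labels give an age of 10 years and the stage adult throughout. In the labels a state is 1 sample that holds both animals, and which bear is the subadult was taken from the column names of a supplementary table of the study. With 2 bears per state, differences were set against the spread between the bears, and p-values measure no more than that spread.

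Levels are given in RPKM, the reads of a transcript divided by its length in kilobases and by the size of the library, which allows comparison between transcripts of different length. The libraries held 44.7 to 54.2 M (mega) aligned reads, as read from the steps of the deposited values, and the 12 transcripts drew on 108.3 to 197570 reads each per library. The transcripts were assembled without a genome and named by their match to human proteins, so that no genomic position is given. In the RefSeq annotation of the brown bear (UrsArc2.0) each of the 3 symbols matched 1 gene, with 1 transcript model for TNNI3, 17 for TPM1 and 9 for TPM3. Muscle genes were abundant in all libraries, and MYH1, MYH2 and MYH7, the myosin heavy chains of fast and slow fibres, stood at 1295 RPKM or more in each. None of the 8 cardiac markers searched (MYH6, MYBPC3, TNNT2, MYL4, MYL7, NPPA, NPPB and RYR2) was listed, and neither were the 4 markers of fat cells or the 4 of blood. A gene not listed is not thereby absent, since 17521 transcripts carry no gene name and all listed values are at least 1 RPKM. The skeletal muscle genes ACTA1, MYL1 and TNNT3 were not listed either. The library of the active subadult stood apart in COL1A1, a collagen of connective tissue, at 193.1 RPKM against 6.79 to 11.0 in the other libraries.

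TNNI3 had the largest estimated difference between the states among the 12 transcripts. Its single transcript (isotig33125, 698 bases, ENSG00000129991) stood at 65.4 RPKM in the hibernating subadult and 11.7 in the active subadult, and at 18.9 RPKM in the hibernating adult and 13.4 in the active adult. These levels rest on 2285 and 430.0 reads in the subadult and on 713.0 and 418.0 in the adult. Both hibernating libraries lay above both active ones, and the hibernating subadult lay far above the remaining libraries. The level in hibernation was 5.58-fold that of activity in the subadult and 1.41-fold in the adult. Hibernating libraries averaged 42.1 RPKM ± 32.9 (SD, n = 2) and active ones 12.6 ± 1.19 (SD, n = 2).

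On the scale of log2(RPKM + 0.5) the difference for TNNI3 was 1.45 with a standard error of 0.55, and it did not pass the test (limma, Benjamini-Hochberg adjusted p = 0.592 over 26614 transcripts, unadjusted p = 0.0394). Without the hibernating subadult library the difference was 0.57, and without the hibernating adult library it was 2.34, so that 1 library set its size. A score after the description of NOISeq, the method of the study, was recomputed as well. It gives the share of the differences between the bears within a state, over all transcripts, that a transcript exceeds both in ratio and in RPKM, and 0.8 is the threshold the study used. TNNI3 scored 0.969.

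The skeletal troponin I genes TNNI1 and TNNI2 were not among the named transcripts, so that the level of TNNI3 could not be set against theirs. Whether reads of such close relatives were counted for isotig33125 was not tested. In bulk muscle, fewer cells of a type and less RNA per cell cannot be told apart.

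**Figure D1:**
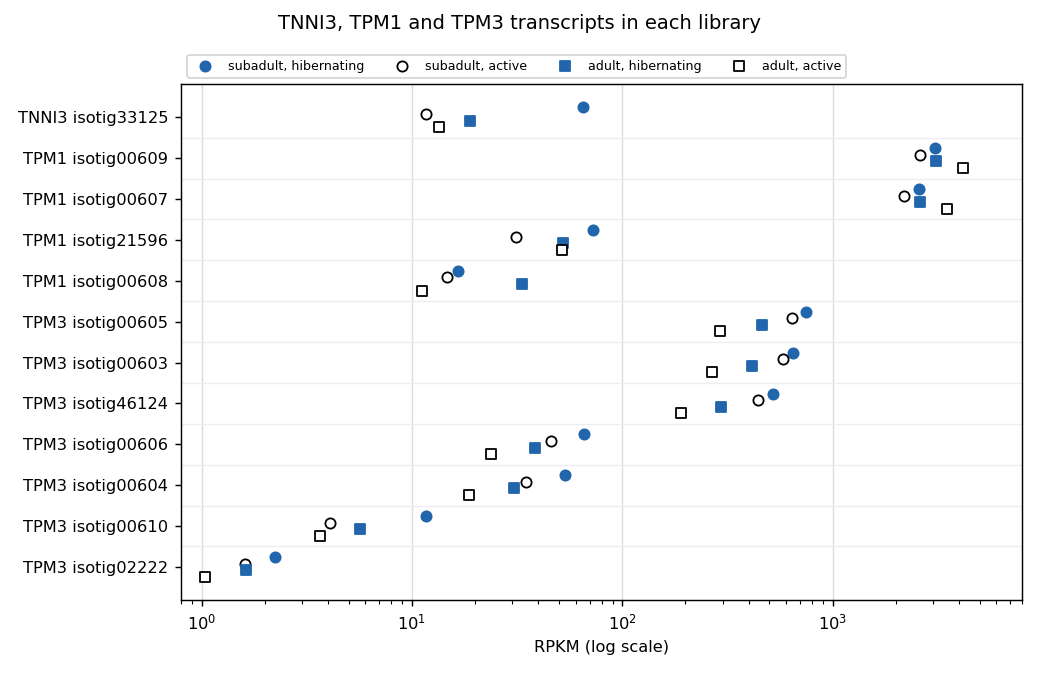
Level of each TNNI3, TPM1 and TPM3 transcript in RPKM on a log axis, with circles for the subadult, squares for the adult, filled symbols for hibernation and open ones for activity. TNNI3 in the hibernating subadult stands at 65.4 RPKM against 11.7 to 18.9 in the other libraries, and the 2 abundant TPM1 transcripts lie between 2181 and 4188 RPKM.

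TPM1 (ENSG00000140416) was the most abundant of the 3 genes, and its 4 transcripts did not move together. The transcript with the most reads (isotig00607, 1262 bases) stood at 2574 RPKM (hibernating) and 2181 (active) in the subadult, and at 2594 and 3505 RPKM in the adult. It was thus higher in hibernation in the subadult, with a log2 difference of 0.24, and lower in the adult, at -0.43, and the states overlapped. The estimate over both bears was -0.10 (standard error 0.41, limma adjusted p = 0.934).

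Isotig00609 (1042 bases) had nearly the same profile, with log2 differences of 0.24 in the subadult and -0.43 in the adult. It stood at 3077 and 2604 RPKM in the subadult and at 3107 and 4188 RPKM in the adult (hibernating and active). Both match the same human transcript (ENST00000403994), and isotig00609 had 98.6% to 98.9% of the reads of isotig00607 in every library. They are therefore not independent measurements of TPM1. Together they took 96.3% to 98.1% of the reads of the gene.

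The other two TPM1 transcripts were scarce and departed from this pair. Isotig00608 (1790 bases, ENST00000559397) stood at 16.6 RPKM (hibernating) and 14.8 (active) in the subadult, and at 33.3 and 11.2 RPKM in the adult. Its level in hibernation was 1.13-fold that of activity in the subadult and 2.98-fold in the adult, with a score of 0.850 and a log2 difference of 0.85 (standard error 0.37, limma adjusted p = 0.596). Both hibernating libraries lay above both active ones, the hibernating adult by the most, and without that library the log2 difference was 0.36.

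Isotig21596 (2972 bases, ENST00000560959) showed its difference in the other bear. It stood at 72.4 RPKM (hibernating) and 31.4 (active) in the subadult, and at 52.1 and 51.7 RPKM in the adult. In hibernation the subadult had 2.31-fold its active level and the adult 1.01-fold, so that the hibernating adult lay barely above the active adult. The log2 difference was 0.60 (standard error 0.32, limma adjusted p = 0.630) and the score 0.724. The 4 transcripts of TPM1 thus covered a log2 range of 1.03 in the subadult and one of 1.97 in the adult. Of the 4, 2 were higher in hibernation in both bears, against 45.8% of all transcripts. The 2 were isotig00608 and isotig21596, the latter barely so in the adult.

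Markers of smooth muscle were also highest in the hibernating adult, the library in which isotig00608 was highest. MYH11, the smooth muscle myosin heavy chain, stood at 27.6 RPKM there and at 5.44 to 7.02 RPKM in the other libraries. MYLK, a myosin light chain kinase, stood at 6.85 RPKM there and at 3.14 to 3.45 in the others. Of the 7 smooth muscle markers searched these 2 were listed, while ACTA2, TAGLN, CNN1, SMTN and LMOD1 were not. Their summed level was 8.58 and 10.3 RPKM in the hibernating and active subadult and 34.5 and 9.94 RPKM in the hibernating and active adult. The part of smooth muscle in the level of isotig00608 was not tested.

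The transcripts of TPM3 (ENSG00000143549) agreed in direction. All 7 were higher in hibernation than in activity in each bear (6 of 7 with libraries scaled by their upper quartile), where 45.8% of all 26614 transcripts were higher in both bears and 17.9% lower in both. None of the 7 passed the test (limma adjusted p from 0.582 to 0.781), which did not pair the libraries by bear. With the animal as a replicate block, which pairs them, the limma adjusted p ran from 0.273 to 0.506. The transcript with the most reads (isotig00603, 2676 bases, ENST00000368530) stood at 650.6 RPKM (hibernating) and 579.0 (active) in the subadult, and at 413.1 and 268.5 RPKM in the adult. Both libraries of the subadult lay above both of the adult, so that the states overlapped while the bears did not. The level in hibernation was 1.12-fold that of activity in the subadult and 1.54-fold in the adult. Over both bears the log2 difference was 0.39 (standard error 0.45, limma adjusted p = 0.781), and without the active adult library it turned to -0.16.

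The remaining TPM3 transcripts fell into 2 abundant and 4 scarcer ones. Isotig00605 (1702 bases) stood at 746.3 and 641.4 RPKM in the subadult and at 461.6 and 292.5 RPKM in the adult (hibernating and active). The short isotig46124 (274 bases, ENST00000515609) stood at 518.9 and 442.9 RPKM in the subadult and at 296.2 and 190.8 RPKM in the adult (hibernating and active). These 2 kept the order of isotig00603 in all 4 libraries, with the subadult in hibernation highest and the adult in activity lowest. Isotig00605 matches the same human transcript as isotig00603 and had 69.3% to 73.0% of its reads.

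Isotig00606 (1857 bases) stood at 66.05 and 45.9 RPKM in the subadult and at 38.5 and 23.8 RPKM in the adult (hibernating and active). Isotig00604 (2436 bases) stood at 53.5 and 35.1 RPKM in the subadult and at 30.5 and 18.6 RPKM in the adult (hibernating and active). Both match ENST00000368533, and isotig00606 had 94.1% to 99.8% of the reads of isotig00604, so that this pair also counts nearly as 1 measurement. On the scale of log2(RPKM + 0.5), with differences of 0.60 in the subadult and 0.70 in the adult, isotig00604 was the single member at least 1.5-fold higher in hibernation in both bears, against 4.28% of all transcripts. By the ratio of RPKM itself isotig00610 was so too.

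Isotig00610 (755 bases, ENST00000368533) stood at 11.7 RPKM (hibernating) and 4.09 (active) in the subadult, and at 5.66 and 3.66 RPKM in the adult. It had the largest difference among the TPM3 transcripts, 2.86-fold for the subadult and 1.55-fold for the adult, and the states did not overlap. The log2 difference was 0.99 with a standard error of 0.37 (limma adjusted p = 0.582, unadjusted p = 0.0360), and the score was 0.848. Without the hibernating subadult library it was 0.50. Isotig02222 (2335 bases, ENST00000368531) was the scarcest, at 2.24 and 1.61 RPKM in the subadult and at 1.63 and 1.04 RPKM in the adult (hibernating and active). No value listed in the table was under 1 RPKM, and the active adult lay near that limit.

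**Figure D2:**
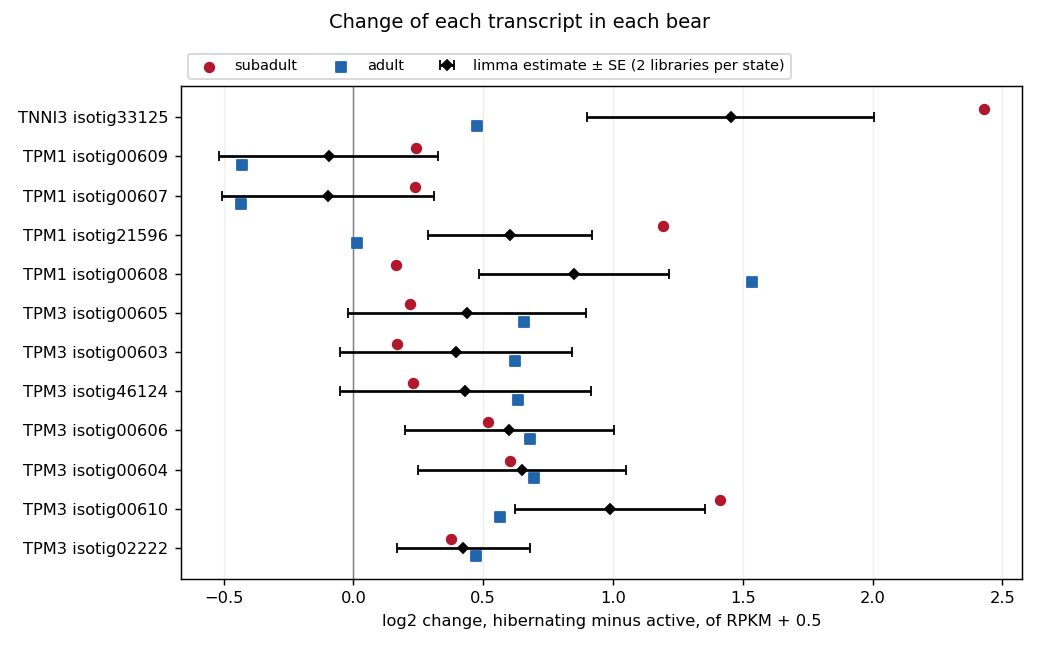
Log2 difference of RPKM + 0.5 between hibernation and activity for each transcript, in the subadult (circles) and the adult (squares), with the limma estimate and its standard error (diamonds and bars, 2 libraries per state). The 7 TPM3 transcripts lie right of 0 in both bears (6 with upper-quartile scaling), while isotig00607 and isotig00609 of TPM1 lie right of 0 in the subadult, at 0.24, and left of it in the adult, at -0.43.

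In the adult the transcripts of TPM3 were close to each other, with log2 differences from 0.47 to 0.70, and in the subadult they spread from 0.17 to 1.41. The 0.47 was that of the scarce isotig02222, where the added 0.5 weighs most. By the ratio of RPKM it was 1.57-fold in the adult, with the others from 1.54- to 1.64-fold. The 1.41 was that of the scarce isotig00610, and the next highest in the subadult was 0.60 for isotig00604. For 6 of the 7 the difference was larger in the adult, isotig00610 being the exception. Transcripts also differed in whether their recovered read numbers were whole. Read numbers recovered for TNNI3 and for isotig00608 of TPM1 were whole to within 0.1 of a read in each library. Those of isotig02222 were not, at 261.7 reads (hibernating) and 197.8 (active) for the subadult and 206.3 and 108.3 for the adult. How reads that match more than 1 transcript were assigned is not given in the sources used here, so that agreement between transcripts of TPM3 is not agreement of 7 separate measurements.

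Over all 12 transcripts, 10 were higher in hibernation in both bears and none was lower in both, against 45.8% and 17.9% of all transcripts. The exceptions were isotig00607 and isotig00609 of TPM1. As given above for transcripts of 1 gene, the 12 are not separate measurements. In the 5 transcripts isotig33125, isotig00608, isotig21596, isotig00610 and isotig02222 both hibernating libraries lay above both active ones, as in 33.6% of all transcripts. No member passed an adjusted p of 0.05 by limma, and neither did any other transcript (0%). At an unadjusted p under 0.05, TNNI3 and isotig00610 of TPM3 were higher in hibernation, which is 2 of 12 against 6.99% of all transcripts. With the animal as a replicate block, 5 of the 12 had an unadjusted p under 0.05, and again none passed after adjustment. Of all transcripts 13.6% had such a p in either direction, against 8.41% in either direction without the block. The 5 were TNNI3, isotig00608 of TPM1 and isotig00604, isotig00606 and isotig00610 of TPM3. A score of at least 0.8 was reached by 3 of 12, TNNI3, isotig00608 and isotig00610, against 3.7% of all transcripts. The median log2 difference over the 12 was 0.52, and over all transcripts it was 0.12.

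These counts depended on the scaling of the libraries. Scaling by the median ratio shifted log2 ratios by -0.11 for the subadult and -0.22 for the adult, and scaling by the upper quartile by -0.19 and -0.22, with smaller shifts of log2(RPKM + 0.5) for scarce transcripts. Under the former 9 members were higher in both bears, with 29.7% of all transcripts higher and 33.6% lower. Under the latter 7 members were, with 27.3% of all transcripts higher and 36.3% lower. All 7 TPM3 transcripts stayed higher in both bears under the median ratio, whereas under the upper quartile isotig00603 was lower in the subadult, at -0.02. Isotig21596 of TPM1 turned to -0.20 in the adult under both scalings, and isotig00608 to -0.02 in the subadult under the upper quartile. The score of isotig00608 was 0.794 under the median ratio and 0.782 under the upper quartile, and that of isotig00610 was 0.810 and 0.790, so that 2 members and then 1 reached 0.8. TNNI3 reached it under both.

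**Figure D3:**
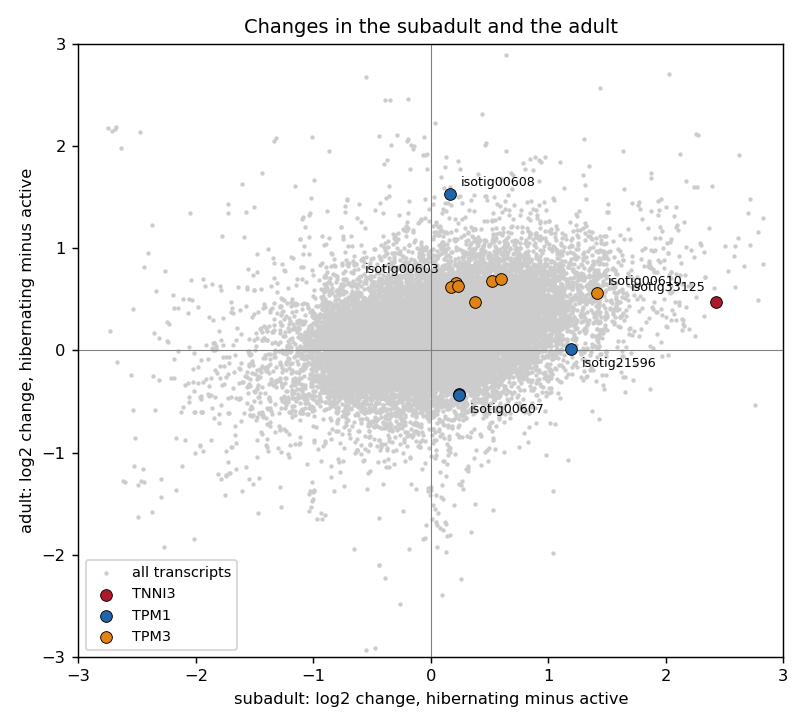
Log2 difference between hibernation and activity in the subadult (horizontal) and in the adult (vertical) for all 26614 transcripts (grey, 43 of them outside the axes) and for the transcripts of TNNI3, TPM1 and TPM3 (colored). TNNI3 lies far right at 2.43 (subadult) and 0.48 (adult), and the TPM3 transcripts lie in the upper right, where 45.8% of all transcripts are.

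The balance of TPM3 and TPM1 differed between the states in the adult and hardly in the subadult. Per length, the most-read transcript of TPM3 stood at 0.253 of the level of that of TPM1 in the subadult during hibernation and at 0.265 during activity. In the adult it stood at 0.159 in hibernation and 0.0766 in activity. The ratio was thus 2.08-fold higher in hibernation in the adult and 0.952-fold in the subadult. The mean log2 difference was 0.49 with an exact two-sided permutation p of 1 over the 4 libraries, where the smallest p possible is 0.333. In both states the ratio was higher in the subadult than in the adult, 1.59-fold in hibernation and 3.46-fold in activity.

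TPM2, the beta-tropomyosin of skeletal muscle, was the most abundant tropomyosin and TPM4, known from non-muscle cells, the scarcest. Isotig11431 of TPM2 stood at 4431 and 3638 RPKM in the subadult and at 3892 and 4198 RPKM in the adult (hibernating and active). Its states overlapped, and the log2 difference over both bears was 0.09 (standard error 0.40, limma adjusted p = 0.940), a sign that turned under both scalings. The 2 further TPM2 transcripts, isotig11432 at 2807 to 3157 RPKM and isotig11433 at 670.3 to 759.4 RPKM, had log2 differences of 0.04 and 0.00. Like the abundant TPM1 pair, all 3 were higher in hibernation in the subadult and lower in the adult.

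TPM4 was higher in hibernation in both bears. Isotig19666 stood at 15.5 and 11.2 RPKM in the subadult and at 14.8 and 8.10 RPKM in the adult (hibernating and active), and the states did not overlap. The log2 difference was 0.65 (standard error 0.24, limma adjusted p = 0.588). Its second transcript, isotig19667, was almost a copy, with 15.9 and 11.4 RPKM in the subadult and 15.2 and 8.27 RPKM in the adult. Among the most-read transcripts of the 4 genes, TPM2 took 52.6% to 57.8% of the summed RPKM, TPM1 33.6% to 43.9%, TPM3 3.36% to 9.03% and TPM4 0.101% to 0.215%.

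Of the 7 other troponin subunits searched only TNNC2, the troponin C of fast fibres, was listed. Isotig20040 stood at 1198 and 1860 RPKM in the subadult and at 1950 and 2347 RPKM in the adult (hibernating and active). It was lower in hibernation in both bears, as was isotig20041, which stood at 3803 and 5907 RPKM in the subadult and at 6191 and 7456 RPKM in the adult. Both libraries of the adult lay above both of the subadult, the reverse of the order seen for TPM3. The log2 difference was -0.45 for both transcripts (standard errors 0.39 and 0.49, limma adjusted p = 0.739 and 0.771).

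Of 5 actins only ACTC1, the cardiac alpha-actin, was listed, at 5096 and 4750 RPKM in the subadult and at 3114 and 5149 RPKM in the adult (hibernating and active). It was higher in hibernation in the subadult and lower in the adult, in the same directions as the abundant TPM1 transcripts. Reads of near-identical actins may have been counted there. Of 17 gene symbols for filament length and capping, with older and newer symbols of a gene counted apart, 6 were listed. Of these 2 were higher in both bears, 2 lower in both and 2 differed in direction. Of all transcripts 45.8% were higher in both and 17.9% lower in both. KBTBD10, a Kelch protein of the sarcomere, stood at 4128 and 2345 RPKM in the subadult and at 3767 and 3054 RPKM in the adult. CFL2, a cofilin of muscle, lay between 40.1 and 53.9 RPKM, CAPZA2, an actin capping subunit, between 40.4 and 50.1, and CAPZA1 between 6.42 and 7.16. No gene of these lists passed the adjusted test.

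**Figure D4:**
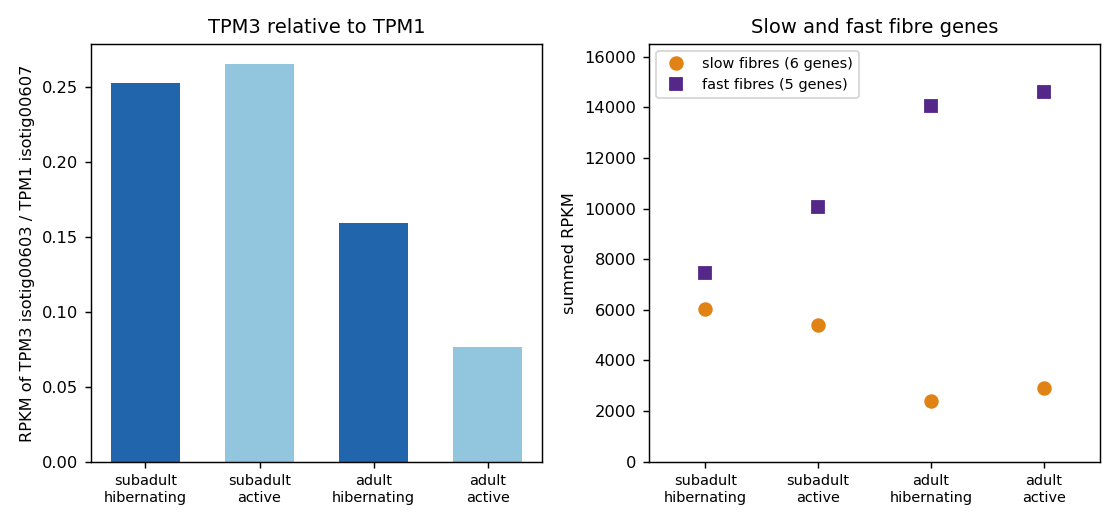
Left, ratio of the RPKM of the most-read transcripts of TPM3 and TPM1 in each library. Right, summed RPKM of the 6 listed slow fibre genes (circles) and the 5 listed fast fibre genes (squares). The ratio lies between 0.253 and 0.265 in the subadult and at 0.159 and 0.0766 in the adult, and the slow sum is higher and the fast sum lower in the subadult.

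The subadult lay above the adult in most TPM3 transcripts, as in most of the slow fibre genes and of the filament length and capping genes listed. In 5 of the 7 TPM3 transcripts, and in no transcript of TNNI3 or TPM1, both libraries of the subadult lay above both of the adult, which held for 18.8% of all transcripts. The 5 were isotig00603, isotig00605, isotig46124, isotig00604 and isotig00606. Of 10 slow fibre genes searched 6 were listed, and in 4 of them the subadult lay above the adult likewise. The same order held for 4 of the 6 listed genes for filament length and capping, TMOD3, CAPZA1, CAPZA2 and CFL2. Isotig00607 and isotig00609 of TPM1 had the reverse order, with both libraries of the adult above both of the subadult. Between the hibernating libraries that margin was small. MYH7, the slow myosin heavy chain, stood at 2872 and 3004 RPKM in the subadult and at 1295 and 1839 RPKM in the adult (hibernating and active). MYL3, a slow myosin light chain, stood at 2679 and 1968 RPKM in the subadult and at 892.5 and 921.8 RPKM in the adult. ATP2A2, the slow calcium pump, lay between 111.7 and 141.6 RPKM in the subadult and between 56.9 and 67.9 RPKM in the adult, and MYOZ2, a Z-disc protein, between 161.6 and 286.0 RPKM and between 62.0 and 71.7 RPKM.

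Summed over the 6, slow fibre genes stood at 6017 and 5412 RPKM in the subadult and at 2388 and 2915 RPKM in the adult (hibernating and active). In the adult, TPM3 was thus higher in hibernation while the slow sum, of which MYH7 and MYL3 made up most, was lower. ATP2A2, MYH7B and CASQ2 were higher in the hibernating than in the active adult. Of 13 fast fibre genes 5 were listed, with sums of 7441 and 10061 RPKM in the hibernating and active subadult and 14055 and 14604 RPKM in the hibernating and active adult. MYH1 stood at 2054 and 4823 RPKM in the subadult and at 7625 and 7801 RPKM in the adult, MYH2 lay between 2755 and 3863 RPKM in all libraries, and MYBPC2, the fast myosin-binding protein C, was lower in hibernation in both bears, at 180.6 against 420.8 RPKM and at 309.0 against 626.2. Between the states, 3 of the 6 slow genes were higher in both bears and 2 lower, with a median log2 difference of 0.25. Of all transcripts 45.8% were higher in both and 17.9% lower, with a median difference of 0.12, as deposited like the counts of slow and fast genes. With median-ratio scaling the shares were 29.7% and 33.6%, and the counts of slow and fast genes were not taken under it. The 3 slow genes higher in both bears were ATP2A2 and, named after their values were seen, MYH7B and CASQ2. MYH7B, a slow-type myosin heavy chain, stood at 157.6 and 40.1 RPKM in the subadult and at 66.3 and 23.5 RPKM in the adult (hibernating and active), with a log2 difference of 1.72 and a score of 0.981, and CASQ2, a calsequestrin, had a log2 difference of 0.87 (limma adjusted p = 0.577 for both). Of the fast genes 1 of the 5 was higher and 4 lower, with a median of -0.45. The part of fibre composition in the levels of TPM3 was not tested, and with 1 animal each, age and animal cannot be told apart.

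Few markers of other cells were listed. Of 6 fibroblast genes 3 were listed, with a sum of 268.9 and 311.7 RPKM in the hibernating and active subadult and 222.6 and 146.0 RPKM in the hibernating and active adult. The lower sum in the hibernating subadult came from COL1A1, given above. COL3A1, another collagen, stood at 254.0 and 116.1 RPKM in the subadult and at 209.8 and 136.0 RPKM in the adult (hibernating and active), and COL1A2 lay between 2.592 and 3.995 RPKM. Both were higher in hibernation in each bear. Of 4 endothelial genes PECAM1 was listed, at 7.53 to 13.0 RPKM. Of 5 genes of developing or regenerating fibres, MYH8, a perinatal myosin, stood at 298.7 to 773.5 RPKM and was lower in hibernation in both bears, and MYOD1, a myogenic regulator, stood at 1.79 to 4.92 RPKM and was higher in both. Their part in the levels of TNNI3, TPM1 and TPM3 was not tested.

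Genes with the most similar profile over the 4 libraries were sought among the most-read transcripts of 4870 other named genes, by the Euclidean distance of log2(RPKM + 0.5) centred on its own mean. For TNNI3 these included HEXDC (distance 0.231) and LRRN1 (0.347). HEXDC stood at 24.5 and 3.84 RPKM in the subadult and at 7.75 and 4.32 RPKM in the adult (hibernating and active). For TPM1 they were GTPBP2 (0.0338), BRPF3 (0.0733) and FBXO41 (0.0950), with at most 9.19 RPKM in any library. For TPM3 they were FADS3 (0.0892), YPEL2 (0.0965) and GMIP (0.161). FADS3 stood at 7.42 and 7.11 RPKM in the subadult and at 4.69 and 3.00 RPKM in the adult (hibernating and active), that is, in the same order as TPM3.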

How the data were processed

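The authors sequenced cDNA of gastrocnemius biopsies, assembled transcripts de novo from pooled pyrosequencing reads and from paired-end reads, matched them to human proteins by BLAST, mapped single-end reads by SOAP2 and deposited, as RPKM, the level of each transcript in each library beside its length. The treatment of reads that fit several transcripts and any nuclease normalization of the single-end cDNA are not given in the sources used here. All 4 libraries are at or above 1 RPKM in every listed transcript. Pooled and paired-end samples were not analysed here.

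From the deposited RPKM, log2(RPKM + 0.5) of 2 hibernating and 2 active libraries was compared by limma 3.58.1 (R 4.3.3) over 26614 transcripts, with a prior variance that follows the mean level and p-values adjusted by Benjamini-Hochberg (threshold 0.05). The animal pairs the libraries, since each bear gave 1 library per state. Subadult minus adult, compared between the states, had a Pearson r of 0.36 over transcripts (no independent replicates). The fit with the animal as replicate block was an alternative. The score compared each transcript with 53228 differences between the bears within a state. RPKM times length came in steps that gave the aligned reads, whole to within 0.1 of a read for 91.2% to 91.8% of low values, and no count test was run. Both methods were tested on simulated data. Tables were handled with Python 3.11.15, pandas 2.3.3 and numpy 2.4.6, and plots drawn with matplotlib 3.10.9.

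All member transcripts and every listed transcript of other troponins and tropomyosins are named. Of other lists, at most the 4 genes with the highest mean RPKM are given with values, by their most-read transcript (largest product of mean RPKM and length), with MYH7B and CASQ2 added after their values were seen. Of the genes with the most similar profile, the 3 closest to each member gene were taken, of which 1 is not reported here. Members, lists and tests were chosen with earlier results of these data known. Alternatives covered the pseudocount, scaling, an RPKM minimum, the named transcripts alone, the prior, the block, each library left out, each bear alone, the transcript taken for a gene, and the thresholds.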

Additional observations from a re-analysis of the deposited data

Results flagged for a closer look

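The 2 abundant TPM1 transcripts moved in opposite directions in the 2 bears. Isotig00607 was higher in hibernation in the subadult and lower in the adult, and its log2 difference in the adult minus that in the subadult was -0.67, as it was for isotig00609 (-0.67), which had nearly the same reads. With 1 library per bear and state, this difference between the bears was not tested. No search for outlying samples was run, since each state holds 2 libraries.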

How the results depend on the processing

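None of the 12 transcripts passed an adjusted p of 0.05 in limma under any alternative that kept all 4 libraries (count 0), the replicate block included. At an unadjusted p under 0.05 there were 2 in the main fit and 5 with the replicate block. Over all transcripts limma passed 0, and 35 without the hibernating adult library, none of them a member. With the animal as replicate block the differences were unchanged, that of TNNI3 being 1.45 (limma adjusted p = 0.281), and no call by adjusted p changed. Over the alternatives that kept all 4 libraries the limma adjusted p of TNNI3 ranged from 0.281 to 0.784. That of TPM1 ranged from 0.630 to 0.957 and that of TPM3 from 0.506 to 0.913. With each library left out in turn, the difference ranged from 0.57 to 2.34 for TNNI3, from -0.44 to 0.24 for isotig00607 and from -0.16 to 0.95 for isotig00603. The negative values of TPM3 came without the active adult library, at -0.16 for isotig00603, -0.13 for isotig00605 and -0.18 for isotig46124. There both hibernating bears stood against the active subadult alone, with no term for the animal. The highest were 1.00 for isotig00605 and 1.04 for isotig46124 without the active subadult, where the active adult alone was left for activity. Without the active adult library isotig00607 and isotig00609 of TPM1 were at 0.24 and 0.25. Taken as its longest transcript, isotig21596, TPM1 was at 0.60, and in the subadult alone isotig00607 and isotig00609 were both at 0.24, in place of -0.10. The mean over the transcripts and the summed reads kept the sign for TPM1 and TPM3. The count with a score of at least 0.8 went from 3 to 1 at a threshold of 0.9, to 2 under the median ratio (isotig00608 lost) and to 1 under the upper quartile (isotig00608 and isotig00610 lost), and the count higher in both bears from 10 to 1 at 1.5-fold on log2(RPKM + 0.5), or 2 by the ratio of RPKM. The TPM3 to TPM1 difference of 0.49 was 0.52 by the mean RPKM of all transcripts. For TPM2, isotig11431, isotig11432 and isotig11433 turned to -0.078, -0.13 and -0.17 under the median ratio and to -0.12, -0.16 and -0.20 under the upper quartile. They were at -0.11, -0.091 and -0.17 in the adult alone, and with each library left out they ranged from -0.016 to 0.19, from -0.042 to 0.12 and from -0.089 to 0.091. An RPKM minimum of 5 removed isotig02222 and gave no value for it. The cause of these changes was not tested beyond the samples or transcripts left out. Depth limits the scarcest transcripts, with 108.3 reads at the lowest, and the floor of 1 RPKM bounds their differences.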
